A study of Homo sapiens with 18 samples.

Results

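The genes described here encode the machinery that brings proteins into the endoplasmic reticulum (ER) and carries them to and through the Golgi. They were selected by their names in the deposited table: the signal recognition particle, the SEC genes, the coat and tether subunits, the TMED cargo receptors, the golgins GOLGA1 to GOLGA5 and the syntaxins. This rule found 91 of the 8996 genes in the table and used no measured value. HEK293T cells, an established human embryonic kidney line labelled wild type, received STM2457 or DMSO, its vehicle, 3 h before labelling. STM2457 inhibits METTL3, the enzyme that places most N6-methyladenosine (m6A) on mRNA. The cells were then given 100 µM 4-thiouridine (s4U) for 90 or 180 min, or no label, with 3 samples for each of the 6 combinations of treatment and label. SLAM-seq reads the s4U as T-to-C conversions after alkylation and so separates new from old mRNA. The labels do not say whether the 3 samples came from separate cultures.

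Secretory and membrane proteins enter the ER through a fixed series of steps. The signal recognition particle and its receptor bring the ribosome to the SEC61 channel, and signal peptidase trims the new chain. COPII vesicles leave the ER, COPI vesicles return material to it and work within the Golgi, tethers catch the vesicles, and SNARE proteins fuse them. The 91 genes were divided along this route into 8 genes for targeting, 10 for the translocon, 5 for signal peptidase, 12 for COPII, 7 for COPI, 9 TMED genes, 11 TRAPP genes, 6 COG genes, 5 golgins, 8 SNAREs of ER-Golgi traffic and 9 other syntaxins. SEC14L1, a lipid-binding protein outside this route, matched the name rule as well.

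For each gene and treatment the table gives 1 fitted half-life and 1 fitted rate of synthesis. It holds no value for a single sample and neither intervals nor read counts. Depth is therefore unknown, no error or test can be given, and each comparison below is between 2 fitted values. A gene is called longer-lived or shorter-lived where its half-life in STM2457 differed from that in DMSO by more than 1.5-fold, a rule of size. The unit of time is not named in the table, and hours are inferred from the values. Synthesis rates have no named unit and are compared only as ratios or within the table. Half-lives stop at a ceiling of 69.3 h, so the size of a ratio that involves the ceiling is set by it. Of a short list of genes for this line, HOXA9, NEFL, NEFM and VIM were in the table and PAX2 was not. Of 5 genes of other lineages, COL1A1 and CDX2 were in it.

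Of the 91 transport genes, 22 were longer-lived and 26 shorter-lived in STM2457, and 43 stayed within 1.5-fold. Over all genes the shares were 28.5% longer-lived and 24.9% shorter-lived, and among the transport genes they were 24.2% and 28.6%. Below the ceiling in both treatments, the longer-lived share was 16.4%, against 22.8% of all genes, and the shorter-lived share 34.2%, against 27.5%. Without the genes whose fitted increase exceeds a limit set by 6 h of synthesis (described below), these shares were 6.06%, against 13.3%, and 39.4%, against 32.1%. That limit was chosen after seeing the data and bears only on increases, so leaving out these genes selects on the outcome. It was exceeded by 18 of the 22 longer-lived and 0 of the 26 shorter-lived genes. Past 2-fold, 16 genes (17.6%) were longer-lived and 7 (7.69%) shorter-lived, against 19.7% and 11.3% of all genes. The median log2 ratio was -0.06, against -0.01 for all genes. Their mRNAs were somewhat more stable than the average: median half-lives were 7.29 h (DMSO) and 6.92 h (STM2457), against 5.61 and 5.39 h for all genes. Genes of the same step often differed widely. COPI was the step in which every gene had a ratio below 0, TMED and TRAPP held 8 of the 22 longer-lived genes, and 8 of the 11 steps with at least 3 genes had members past 1.5-fold in both directions.

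**Figure D1:**
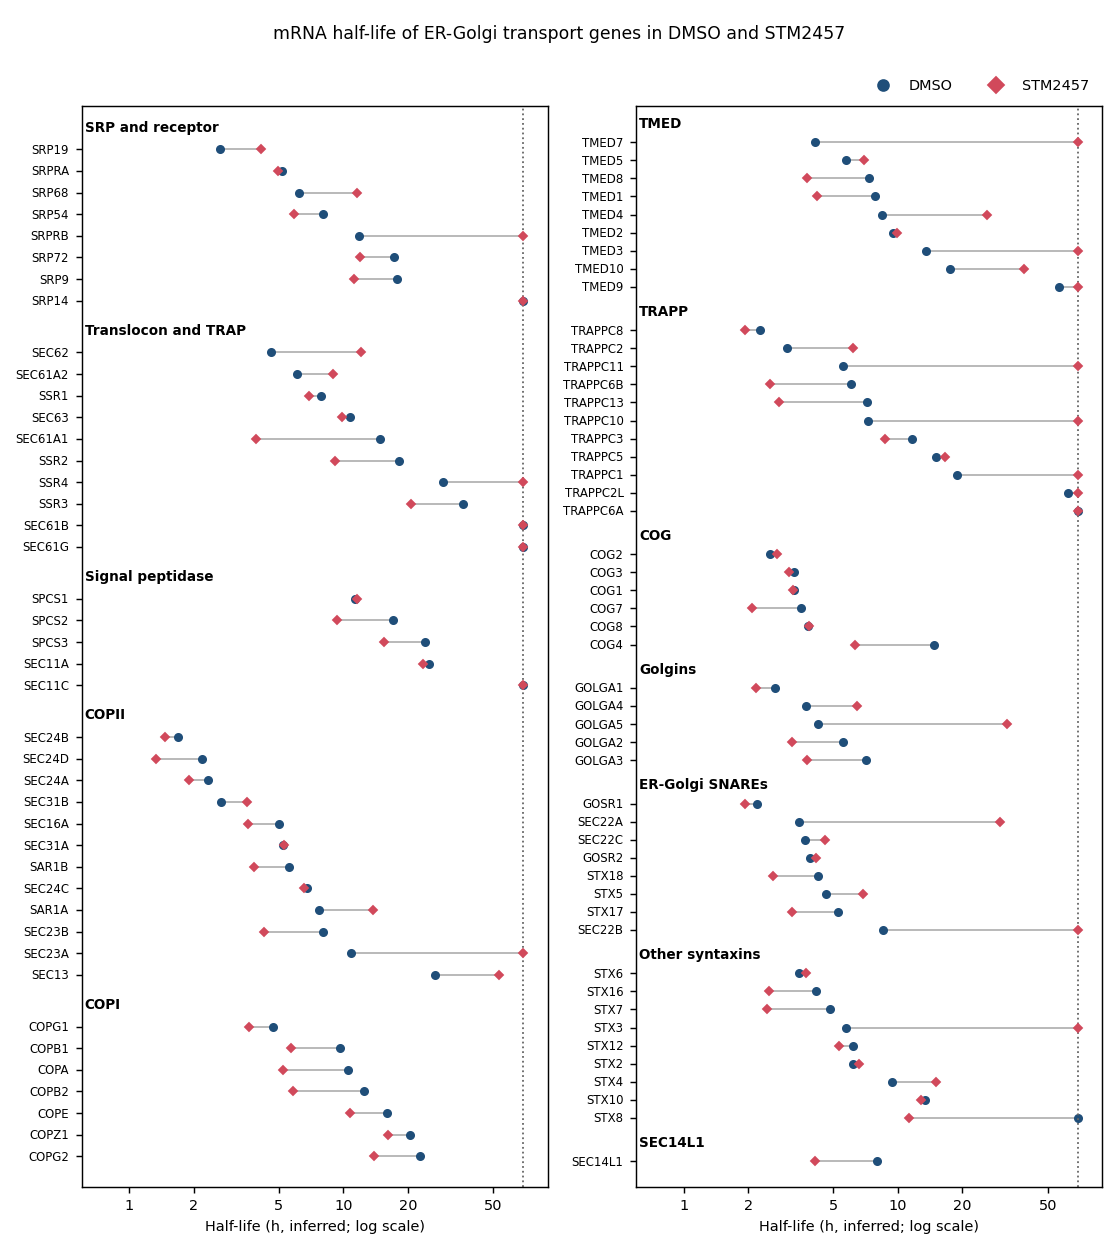
Half-life of each of the 91 transport genes in DMSO (blue circles) and STM2457 (red diamonds), grouped by step and ordered within a step by the DMSO value. The x axis is in hours (inferred) on a log scale, and the dotted line is the ceiling of 69.3 h. All 7 COPI genes have the red mark to the left of the blue one, while 5 TRAPP genes and 3 TMED genes reach the ceiling in STM2457.

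In DMSO the steps differed widely in median half-life. Signal peptidase genes were the most stable (24.1 h), followed by the translocon (16.5 h), COPI (12.4 h), targeting (9.96 h), TMED (8.38 h) and TRAPP (7.23 h). Other syntaxins (6.15 h) and COPII (5.40 h) lay near the median of all genes. Golgins (4.21 h), ER-Golgi SNAREs (4.06 h) and COG (3.41 h) had the shortest medians. In STM2457 the order began with TMED (25.9 h) and TRAPP (16.5 h), signal peptidase followed (15.5 h), COPI moved from place 3 to place 7 (5.84 h), and COG stayed last (3.16 h). The first 2 places are uncertain, because 3 of 9 TMED and 5 of 11 TRAPP genes were at the ceiling in STM2457. The limit set by 6 h of synthesis (described below) was exceeded by 5 TMED genes, among them TMED4, whose value is the TMED median, and by 4 TRAPP genes. Single genes of neighbouring steps overlapped widely, and with 1 value per gene no difference between neighbouring steps could be tested.

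COPI, the coat of vesicles that return to the ER, had 4 shorter-lived and 0 longer-lived genes of 7. The shorter-lived share was 57.1%, against 24.9% of all genes, of which 28.5% were longer-lived. All 7 genes had a log2 ratio below 0, where 50.2% of all genes did, with a median of -0.70. COPA, the alpha subunit (ENSG00000122218.16, chromosome 1, 160288686 to 160343400), went from 10.5 to 5.22 h, 2.01-fold shorter. COPB2, the beta-prime subunit (chromosome 3, 139355600 to 139389732), went from 12.4 to 5.84 h, 2.13-fold shorter. COPB1, the beta subunit, went from 9.65 to 5.67 h. COPG2, a gamma subunit, went from 22.7 to 13.99 h. The other 3 genes moved the same way within 1.5-fold. COPE, the epsilon subunit, had 16.1 and 10.8 h, at a log2 ratio of -0.58 just inside the limit. COPG1, the other gamma subunit, had 4.69 and 3.62 h, and COPZ1, the zeta subunit, 20.5 and 16.2 h. Half-lives in DMSO thus spanned 4.69 to 22.7 h within the complex, while the ratios spanned only -1.09 to -0.34.

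The delta subunit of the same coat is ARCN1, whose name the rule does not match. It went from 9.30 to 5.6 h, at a log2 ratio of -0.73. With it, 8 of 8 coatomer genes in the table had ratios below 0 and 5 were shorter-lived. No COPI gene was at the ceiling in either treatment. Log2 synthesis ratios of the 7 genes ran from -0.72 (COPG2) to 0.68 (COPZ1), with a median of -0.10, and the fits imply steady-state abundances of 0.37-fold (COPG2) to 1.27-fold (COPZ1) the DMSO level.

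COPA, COPB1 and COPB2 also share a promoter sequence. TGACGTGG, a site type known to be bound by factors of the ER stress response such as XBP1 and ATF6, was looked for on both strands in windows of 250 bases before to 50 after each RefSeq transcription start (GRCh38.p14). It contains the core ACGTG. Windows were found for 82 of the 91 genes, and 13 of these genes (15.9%) held the sequence in at least 1 window, against 253 of 27305 genes (0.93%) and 96 of 7053 genes of the decay table (1.36%). By window the counts were 14 of 111 and 256 of 35116 (0.73%). The windows below, 30 bases each and written 5′ to 3′ on the strand that reads TGACGTGG, show the match in capitals in its surroundings. They are from COPA, COPB1 and COPB2 and from genes of 3 other steps.
COPA, chr1:160343227-160343256, minus strand: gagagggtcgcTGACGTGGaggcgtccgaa
COPB1, chr11:14499841-14499870, plus strand: gagtccttggcTGACGTGGaagggggtggg
COPB2, chr3:139389632-139389661, plus strand: gtcagactgacTGACGTGGaacttccggga
COPB2, chr3:139389825-139389854, plus strand: actaagggccgTGACGTGGtgccgctgagc
SEC23A, chr14:39103221-39103250, minus strand: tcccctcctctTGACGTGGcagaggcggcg
SEC62, chr3:169966779-169966808, minus strand: ccggttccctcTGACGTGGagcgaggaggg
SSR3, chr3:156554148-156554177, plus strand: agtttccttgcTGACGTGGctgttatcaga
STX5, chr11:62832049-62832078, minus strand: ttacgtgtaggTGACGTGGccgcttccagt

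COPB2 held the match at 2 places. The other genes with it were GOLGA1, GOLGA5, SEC16A, SEC24A, SRP19 and SSR4. The remaining COPI genes, COPE, COPG1, COPG2 and COPZ1, were not among the genes with a match. Of 62 other genes of the route with a window, 4 (6.45%) held it. Other motifs were searched in the same way. The exact form of the ER stress response element, CCAAT and CCACG with 9 bases between them, was in the windows of 0 of 82 transport genes and of 25 of 27305 genes. Its second form, ATTGG and CCACG with 1 base between them, was in 0 of 82 and 19 of 27305. TGACGTCA, the cyclic AMP response element, was in 2 of 82 (2.44%), against 2.25% of all genes and 4.37% of genes of the decay table. CACGTG, which overlaps the same core, was in 13 of 82 (15.9%), against 8.77% of all genes and 13.5% of genes of the decay table. The transport genes with TGACGTGG did not share a direction of half-life: 5 were longer-lived and 4 shorter-lived of 13. Among the 96 genes of the decay table with it, 31 were longer-lived and 24 shorter-lived. The shares over all genes were 28.5% and 24.9%. For the 13 transport genes the median log2 synthesis ratio was -0.14, with 10 of 13 (76.9%) below 0, where 54.7% of all genes were. It was 0.12 for the 69 transport genes without the sequence and -0.14 for the 96 genes of the decay table with it, 60.4% of which were below 0. A match is a sequence description, and binding was not measured.

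The signal recognition particle, which binds the signal sequence as it leaves the ribosome, and its receptor had 3 longer-lived and 1 shorter-lived gene of 8. These shares were 37.5% and 12.5%, against 28.5% and 24.9% of all genes. SRPRB, the membrane-anchored receptor subunit (chromosome 3, 133784033 to 133825772), had 11.9 h in DMSO and reached the ceiling in STM2457. SRPRA, the subunit that pairs with it, stayed at 5.18 and 4.98 h. SRP68 went from 6.20 to 11.6 h, 1.87-fold longer, while SRP72, its partner in the particle, had 17.2 and 11.9 h. SRP68 and SRP72 thus lay on opposite sides of 0, at log2 ratios of 0.90 and -0.53. SRP19, which helps assemble the particle on its RNA, went from 2.66 to 4.11 h, the shortest-lived mRNA of this step in both treatments. SRP54, the subunit that holds the signal sequence, had 8.03 and 5.86 h. SRP9 went from 17.8 to 11.2 h, 1.59-fold shorter, while SRP14, with which it forms the arm that slows translation, was at the ceiling in both treatments.

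Subunits of the SEC61 channel, through which proteins cross the ER membrane, had very different half-lives. SEC61A1, the pore-forming subunit (ENSG00000058262.10, chromosome 3, 128051641 to 128071683), went from 14.8 to 3.91 h, 3.79-fold shorter and the lowest ratio of the 91 genes after STX8. SEC61A2, its paralog, had 6.05 and 8.98 h, at a log2 ratio of 0.57 just inside 1.5-fold. SEC61B and SEC61G, the small subunits of the same channel, were at the ceiling in both treatments. The pore subunit and the small subunits of 1 channel thus lay far apart in STM2457. SEC62, which assists translocation and also acts in ER-phagy, went from 4.62 to 12.1 h, 2.63-fold longer, while its partner SEC63 had 10.8 and 9.84 h.

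The 4 SSR genes encode the translocon-associated protein complex, which sits beside SEC61. SSR2 went from 18.1 to 9.14 h and SSR3 from 36.0 to 20.8 h, both shorter-lived. SSR4 went the other way, from 29.1 h to the ceiling, and SSR1 had 7.85 and 6.93 h. Of the signal peptidase genes, SPCS2 went from 17.0 to 9.30 h and SPCS3 from 24.1 to 15.5 h, both shorter-lived. SPCS1 had 11.3 and 11.6 h. The catalytic subunit SEC11A had 25.2 and 23.4 h, and its alternative SEC11C was at the ceiling in both treatments. No signal peptidase gene was longer-lived and 2 of 5 (40%) were shorter-lived, against 28.5% and 24.9% of all genes.

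Genes of ER entry had higher fitted synthesis ratios than all genes, a trait not particular to them. Of the 23 genes of the first 3 steps, 10 had synthesis rates more than 1.5-fold higher in STM2457 and 0 more than 1.5-fold lower, where 12.6% and 13.2% of all genes with a synthesis ratio did. The median log2 synthesis ratio was 0.44, against -0.06 for all genes. It was 1.58 for SEC11C, 1.39 for SEC61B, 1.38 for SRP14 and 1.15 for SEC61G, all of them at the half-life ceiling in both treatments. Over the 163 genes of the table at the ceiling in both treatments the median was 1.49, and 145 of them were more than 1.5-fold higher, so the 4 values were near those of other genes at the ceiling. SSR3 (1.04), SSR2 (0.78) and SEC11A (0.77) were higher as well without being at the ceiling. Outside the rule, the 12 oligosaccharyltransferase genes described below had a median of 0.63, with 6 more than 1.5-fold higher and 1 lower. The 17 genes listed with tail-anchored insertion had a median of 0.12, with 5 more than 1.5-fold higher and 1 lower. Half-life and synthesis were fitted together. Over the 91 genes the Spearman correlation of the 2 log2 ratios was -0.26, a description across genes, against -0.35 over all genes.

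**Figure D2:**
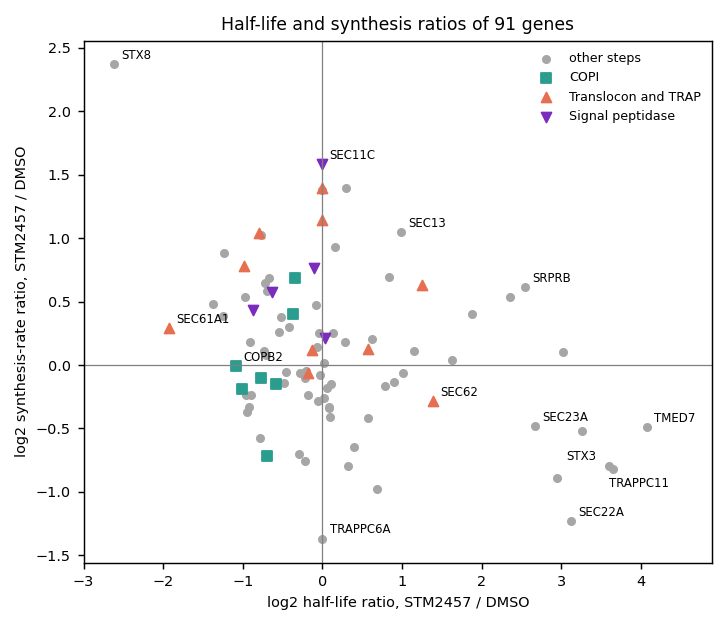
Log2 ratio of synthesis rate (y axis) against log2 ratio of half-life (x axis), STM2457 over DMSO, for the 91 transport genes, with COPI, translocon and signal peptidase genes marked. COPI genes all lie left of 0 on the x axis, and STX8 stands at the upper left with -2.62 for half-life and 2.37 for synthesis.

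COPII, the coat of vesicles that leave the ER, had 3 longer-lived and 2 shorter-lived genes of 12. These shares were 25% and 16.7%, against 28.5% and 24.9% of all genes. The small GTPases that start the coat differed from each other: SAR1A went from 7.73 to 13.8 h, 1.78-fold longer, and SAR1B from 5.59 to 3.83 h, at a log2 ratio of -0.54. The inner coat showed a wider contrast. SEC23A (chromosome 14, 39031919 to 39109646) went from 10.9 h to the ceiling, while its paralog SEC23B went from 8.0 to 4.29 h, 1.87-fold shorter. Both genes encode the same subunit of the coat, and their calls were opposite. In DMSO the SEC23A half-life was 1.36-fold that of SEC23B, and in STM2457 16.2-fold, a value set by the ceiling.

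The SEC24 genes encode the subunits that bind cargo, and 3 of the 4 were the shortest-lived mRNAs of the coat. SEC24B had 1.70 and 1.47 h, SEC24A had 2.33 and 1.91 h, and SEC24D went from 2.19 to 1.33 h, 1.64-fold shorter. SEC24C was the stable form, at 6.74 and 6.55 h, 2.89-fold to 3.97-fold the half-life of the other 3 in DMSO. The order SEC24C above SEC24A held in both treatments, while SEC24B and SEC24D changed places at the lower end. In the outer coat, SEC31A had 5.21 and 5.29 h, SEC31B 2.68 and 3.54 h, and SEC13, which also serves in the nuclear pore, went from 26.9 to 53.2 h. SEC16A, the scaffold of ER exit sites, had 5.01 and 3.58 h.

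TMED proteins cycle between ER and Golgi as cargo receptors, and 4 of their 9 genes were longer-lived and 2 shorter-lived. These shares were 44.4% and 22.2%, against 28.5% and 24.9% of all genes. TMED7 (chromosome 5, 115613508 to 115632992) had the largest ratio of all 91 genes, from 4.11 h to the ceiling, 16.9-fold. Its last exon overlaps an exon of the read-through gene TMED7-TICAM2. TMED3 went from 13.5 h to the ceiling. TMED4 went from 8.38 to 25.9 h and TMED10 from 17.4 to 38.7 h, both below the ceiling. TMED1 and TMED8 went the other way, from 7.83 to 4.17 h and from 7.29 to 3.77 h. TMED2 had 9.52 and 9.91 h, TMED5 5.70 and 6.92 h, and TMED9 56.2 h and the ceiling. Members of this family therefore covered log2 ratios from -0.95 to 4.08.

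TRAPP complexes tether vesicles at the Golgi and activate RAB GTPases. Of 11 genes, 4 were longer-lived and 2 shorter-lived, and 5 were at the ceiling in STM2457. The first 2 shares were 36.4% and 18.2%, against 28.5% and 24.9% of all genes. TRAPPC11, found in the TRAPPIII complex (chromosome 4, 183659267 to 183713594), went from 5.53 h to the ceiling, and TRAPPC10, of TRAPPII, from 7.23 h to the ceiling. TRAPPC13, another TRAPPIII subunit, went from 7.17 to 2.77 h, 2.59-fold shorter. TRAPPC11 and TRAPPC13 thus had similar values in DMSO and lay at opposite ends of the step by ratio. TRAPPC8, also of TRAPPIII, was short-lived at 2.26 and 1.94 h.

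Among core TRAPP subunits, TRAPPC6B went from 6.02 to 2.54 h, 2.38-fold shorter, while its paralog TRAPPC6A was at the ceiling in both treatments with low fitted synthesis rates of 4.73 and 1.83, where the median gene of this step had 36.5 in DMSO. TRAPPC1 went from 18.8 h to the ceiling, and TRAPPC2 from 3.03 to 6.14 h, 2.03-fold longer. TRAPPC3 had 11.7 and 8.74 h, TRAPPC5 15.1 and 16.5 h, and TRAPPC2L 62.4 h and the ceiling. Without the genes at the ceiling in either treatment, 6 TRAPP genes were left, with a median log2 ratio of -0.32 in place of 0.13. For all genes below the ceiling in both treatments the median was -0.13.

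**Figure D3:**
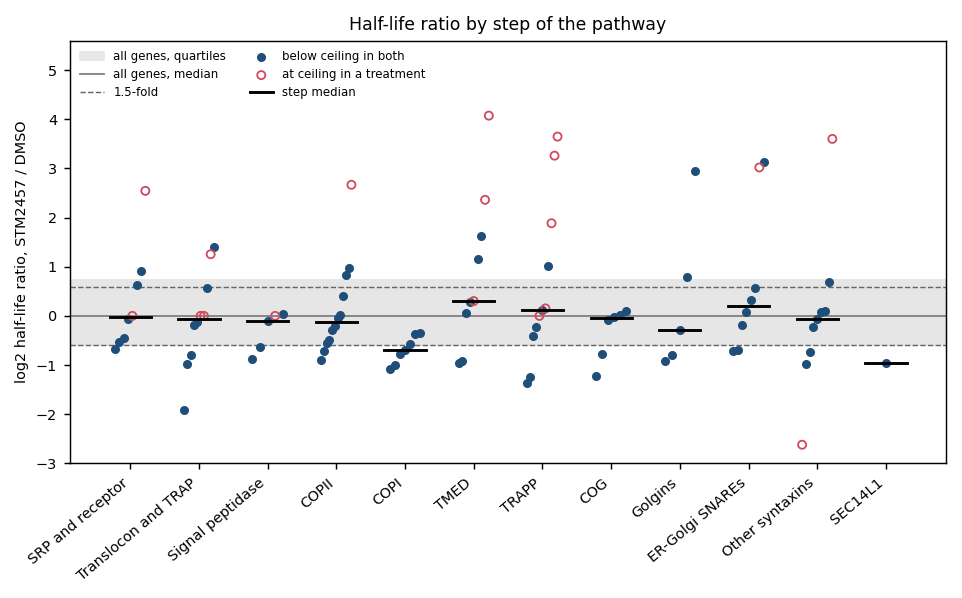
Log2 half-life ratio, STM2457 over DMSO (y axis), of each gene by step of the pathway (x axis). Open red circles are genes at the ceiling in a treatment, black bars are step medians, the grey band spans the quartiles of all 8996 genes and the dashed lines mark 1.5-fold. COPI has the lowest median of the steps with several genes, -0.70, and its points form the narrowest group, from -1.09 to -0.34.

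The COG complex is a tether for vesicles that recycle Golgi enzymes. Its genes COG5 and COG6 were not among those found, and the 6 found were mostly short-lived. Of these, 4 stayed within 1.5-fold (66.7%, against 46.6% of all genes). The other calls were 2 shorter-lived (33.3%, against 24.9%) and 0 longer-lived (against 28.5%). COG1 had 3.28 and 3.22 h, COG2 2.52 and 2.71 h, COG3 3.27 and 3.10 h, and COG8 3.80 and 3.86 h. COG4 (chromosome 16, 70480568 to 70523565) stood apart with 14.8 h in DMSO and 6.31 h in STM2457, 2.35-fold shorter, and COG7 went from 3.54 to 2.08 h. Both had synthesis rates more than 1.5-fold higher in STM2457, with log2 ratios of 0.89 and 1.03, and implied abundances of 0.79-fold and 1.20-fold.

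Golgins are long coiled-coil tethers on Golgi membranes, and the 5 genes split between both directions. Of them 2 were longer-lived and 2 shorter-lived, 40% each, against 28.5% and 24.9% of all genes. GOLGA5 (chromosome 14, 92794231 to 92839963), which acts within the Golgi stack, went from 4.21 to 32.5 h, 7.71-fold longer. GOLGA4, a golgin of the trans-Golgi, went from 3.72 to 6.43 h, 1.73-fold longer. GOLGA2, of the cis-Golgi, went from 5.54 to 3.21 h and GOLGA3 from 7.10 to 3.75 h, both shorter-lived. GOLGA1, the other trans-Golgi golgin of the set, had 2.66 and 2.17 h. All 5 had log2 synthesis ratios below 0, as did 54.7% of all genes, from -0.89 (GOLGA5) to -0.16 (GOLGA4).

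SNAREs are the proteins that fuse a vesicle with its target. SEC22B, the SNARE on vesicles between ER and Golgi (chromosome 1, 120150898 to 120176515), went from 8.54 h to the ceiling, and SEC22A, a relative, from 3.44 to 29.9 h, 8.72-fold longer. SEC22C, another relative, had 3.68 and 4.58 h. Of the other SNAREs of ER-Golgi traffic, STX5 had 4.63 and 6.89 h, at a log2 ratio of 0.57, GOSR1 2.19 and 1.94 h, and GOSR2 3.89 and 4.13 h. STX18, a SNARE of the ER membrane, went from 4.23 to 2.60 h and STX17, known for autophagosome fusion, from 5.26 to 3.22 h, both shorter-lived.

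Syntaxins of the plasma membrane, trans-Golgi and endosomes included the lowest ratio of the 91 genes and 1 of the highest. STX8, an endosomal syntaxin (chromosome 17, 9250471 to 9576591), went from the ceiling in DMSO to 11.3 h in STM2457. It was the only transport gene at the ceiling in DMSO alone, and its fitted synthesis rate went from 3.68 to 19.0. STX3, a plasma-membrane syntaxin, went from 5.71 h to the ceiling, and STX4, of the same membrane, from 9.34 to 15.0 h, 1.61-fold longer. The endosomal STX7 went from 4.81 to 2.45 h and STX16, of the trans-Golgi, from 4.16 to 2.51 h, both shorter-lived. STX2 (6.18 and 6.57 h), STX6 (3.47 and 3.70 h), STX10 (13.4 and 12.8 h) and STX12 (6.15 and 5.28 h) stayed within 1.5-fold. SEC14L1 went from 7.96 to 4.11 h.

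In all, 17 of the 91 genes (18.7%) were at the ceiling in STM2457, against 10.9% of all genes, and 6 (6.59%) in DMSO, against 2.55%. Of the 22 longer-lived genes, 10 were at the ceiling in STM2457. For 25 of the 91 genes, where 23.4% of all genes did so, the fitted values imply a steady-state abundance in STM2457 that could not be reached from the DMSO level in 6 h even with no decay at all. The 6 h run from the addition of the drug to the end of the longer labelling. For TMED7 the fits imply 12.0-fold, against 1.72-fold, and for GOLGA5, below the ceiling, 4.15-fold, against 1.53-fold. SEC22A, SEC62, TMED4, TMED10, SRP68, SAR1A, SEC13 and, within 1.5-fold by half-life, SEC11A were also below the ceiling and above that limit. The sizes of their shifts are therefore uncertain. None of the 7 COPI genes and none of the 26 shorter-lived genes exceeded it, though the limit bears only on increases.

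Libraries were read from the 3′ end, and some values may include reads of other genes. The last exons of SRP19, TMED7, TRAPPC1, TRAPPC5, COG8, GOSR2 and STX6 overlap another annotated gene on the same strand. Pseudogenes are named after 19 of the 91 genes, with the most for GOLGA2 (9), TRAPPC2 (8), and SRP14, SPCS2 and SAR1A (4 each). Called genes among the 19 were also SRP68, SRP9, SSR4, SEC13, TMED10, TRAPPC13, GOLGA5, SEC22B, STX8 and SEC14L1. How reads were assigned between such copies is not given, so the values of all these genes are uncertain.

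Other genes of the route, from lists of names outside the rule, gave 21 longer-lived and 20 shorter-lived of 83. These shares, 25.3% and 24.1%, were near the 28.5% and 24.9% of all genes. The oligosaccharyltransferase, which adds sugar chains beside the translocon, had 7 longer-lived (58.3%) and 0 shorter-lived genes of 12, with a median log2 ratio of 1.29. All 7 of these exceeded the limit of 6 h of synthesis, as did 20 of the 21 longer-lived genes of all these lists. MAGT1, an accessory subunit, went from 13.9 to 63.6 h, while TMEM258 had 37.0 and 25.9 h. Its members RPN2, OST4, DAD1, OSTC and KRTCAP2 reached the ceiling in STM2457 alone. The translocon itself had a median of -0.07, so neighbouring machines in the same membrane had different medians. Besides ARCN1, which was in the same list, 12 genes work with COPI, such as the ARF GTPases that recruit the coat. Of these 3 were longer-lived and 4 shorter-lived. With ARCN1 the list had 23.1% longer-lived and 38.5% shorter-lived genes of 13, against 28.5% and 24.9% of all genes. ARF4 was 2.21-fold shorter-lived, at 4.98 h in STM2457, and KDELR3, a receptor that returns ER proteins, went from 8.06 to 25.5 h, and ARF3 and KDELR1 reached the ceiling.

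COPII partners had 2 longer-lived (13.3%, all genes 28.5%) and 4 shorter-lived genes of 15 (26.7%, all genes 24.9%). They ranged from CNIH4, a cargo receptor, at 16.4 and 8.69 h, to ERGIC3 at 15.9 and 50.1 h, and LMAN2 reached the ceiling from 66.5 h. Among 26 other tethers and SNARE factors, 4 were longer-lived (15.4%) and 7 shorter-lived (26.9%). USO1, a tether between ER and Golgi, went from 29.03 to 5.46 h, 5.32-fold shorter, BET1L, a Golgi SNARE, went from 2.32 to 11.4 h, and the golgin GCC1 went from 2.08 h to the ceiling. Of 17 genes of tail-anchored insertion, the EMC and TRAM, 5 were longer-lived (29.4%) and 4 shorter-lived (23.5%). WRB, part of the receptor for tail-anchored proteins, went from 19.2 to 7.97 h, and its partner CAMLG from 3.53 to 32.8 h. EMC3 and TRAM2 reached the ceiling.

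The series title concerns m6A in coding regions, and m6A occurs in the sequence class DRACH. DRACH motifs in the coding sequence at least 100 nt from an exon junction were counted in GENCODE 29 transcripts, which describes sequence and does not measure m6A. Transport genes had few of them: 40 of 91 (44.0%) had 0, against 25.1% of all genes, and 9 (9.89%) had 10 or more, against 25.3%. COPI genes had 0 to 2. Those 9 genes were GOLGA4 (118 motifs), SEC16A (55), GOLGA3 (19), COG1 (16), SEC62 (14), TRAPPC8 (13), COG8 (12), GOLGA5 (11) and TRAPPC10 (10). Of them 4 were longer-lived (GOLGA4, SEC62, GOLGA5 and TRAPPC10) and 1 shorter-lived (GOLGA3), shares of 44.4% and 11.1%, against 45.8% and 10.5% of all genes with as many motifs. The median log2 ratio was 0.02, against 0.48 for those genes. With motifs at least 200 nt from a junction only 3 transport genes were left in the class, with a median of 0.79, against 0.58 for all genes.

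The windows below show 2 such coding motifs in each of 4 genes, 30 bases each, 5′ to 3′ on the mRNA strand, with the motif in capitals. GOLGA4 and SEC16A were shown because they have the most of these motifs, and SEC22A and GOLGA5 because they had the largest ratios below the ceiling. All windows lie in coding exons and are given in GRCh38.
GOLGA4, chr3:37323753-37323782, plus strand: caggatgccctttGGACTgaaaaactccaa
GOLGA4, chr3:37324119-37324148, plus strand: gtatctatccagaGGACTgagaaggcatta
SEC16A, chr9:136476406-136476435, minus strand: tatctggtcaagcGGACTttgacgatttct
SEC16A, chr9:136474601-136474630, minus strand: tttaccttaagcaGGACTttggaaaatcct
SEC22A, chr3:123209247-123209276, plus strand: tcgtgtcagagatGGACTgccactttctgc
SEC22A, chr3:123209277-123209306, plus strand: ttctactgattatGAACAaagcacaggaat
GOLGA5, chr14:92797511-92797540, plus strand: ctctcagtaggaaAGACAatgccagcaaca
GOLGA5, chr14:92797544-92797573, plus strand: atagcaaaaatacTGACTatactgaacttc

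Single transport genes with many or few motifs lay on both sides of 0. SEC16A, with 55 motifs, had a log2 ratio of -0.49, and GOLGA4, with 118, had 0.79, while SEC22A reached 3.12 with 3 motifs. STX3, TRAPPC11 and SEC22B, which all reached the ceiling in STM2457, had 0 at least 100 nt from a junction. At any distance they had 21, 75 and 11 coding DRACH motifs, and motifs outside the coding sequence were not counted. By the motifs at least 100 nt from a junction, genes with 0 counted 10 longer-lived and 10 shorter-lived of 40. Genes with 1 to 3 counted 7 and 13 of 36, and genes with 4 to 9 counted 1 and 2 of 6. Over the whole table, 21.99% of genes with 0 motifs and 45.8% of those with 10 or more were longer-lived. The shorter-lived share with 0 was 32.7%. With 1 to 3 the shares were 20.4% longer-lived and 31.6% shorter-lived, and with 4 to 9 they were 26.4% and 23.2%. The median log2 ratio of all genes was -0.22 both with 0 and with 1 to 3 motifs, the classes that hold the COPI genes.

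**Figure D4:**
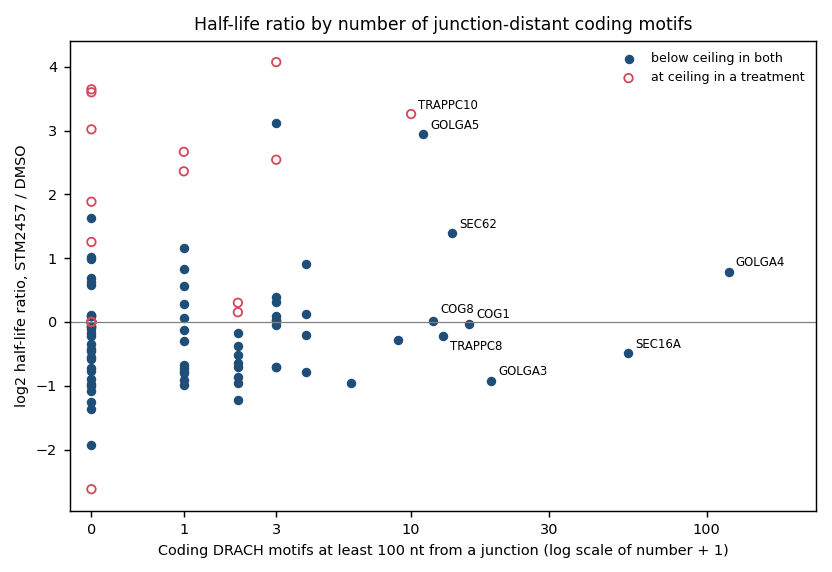
Log2 half-life ratio, STM2457 over DMSO (y axis), against the number of coding DRACH motifs at least 100 nt from a junction (x axis, log scale of the number plus 1) for the 91 transport genes. The 9 genes with 10 or more motifs are named and spread from -0.92 (GOLGA3) to 3.26 (TRAPPC10), and genes with 0 motifs span -2.62 to 3.65.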

How the data were processed

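SLAM-seq of total RNA from HEK293T cells gave 18 samples. Per the labels' protocols, 3′ mRNA libraries were made from alkylated RNA. The submitters' processing notes name STAR 2.7.8a, FastQC 0.11.9 and the build GRCh38.p12. Which program fitted the kinetics, on which annotation and after which filter on genes, was not given in the sources used here. Per gene, the authors deposited half-lives, synthesis rates and their log2 ratios, 1 value per gene and treatment, per the file headers; log2 half-life ratios recomputed from the table differed by at most 1.27e-14. Depth is unknown. Genes at the ceiling lay within 1e-06 of the largest half-life.

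The transport genes, their division into steps and the lists of other genes were chosen with earlier results of these data known. Named were all genes of each step, and of the other lists the highest and lowest ratio below the ceiling and genes at the ceiling in 1 treatment; ARCN1, the promoter motifs, and the other genes named for motifs were picked after values were seen. The abundance implied by a fit is synthesis rate times half-life. Coding motifs came from the longest coding transcript in GENCODE 29 (91 of 91 genes matched); RefSeq promoter windows came from GRCh38.p14. Counting was tested on simulated data. Software was Matplotlib 3.10.9, SciPy 1.17.1, pandas 2.3.3, NumPy 2.4.6 and Python 3.11.15. The alternatives varied the size rule, the range of half-lives, the summary, the centring and the motif.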

Additional observations from a re-analysis of the deposited data

How the results depend on the processing

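No paired analysis was possible because the table holds 1 value per gene and treatment and none per replicate; for the same reason no replicate could be left out. A median was taken as unmoved within 0.25 on the log2 scale, and a count within 1.5 times. Of 60 results under an alternative, 44 stayed so, 10 moved and 6 turned direction. Another 3 crossed 0 within that margin: the median of all transport genes as a mean (0.17), ER-Golgi SNAREs between 0.5 and 24 h (-0.04) and genes with 10 or more motifs at least 50 nt from a junction (-0.22). Of the 44, 14 came from centring on the median of all genes, -0.01, a shift far inside the margin, so they say little. The COPI value was -0.69 as a mean. The range alternatives keep all 7 COPI genes and could not change it. Nor could they change the COG median, with all 6 genes kept, or below the ceiling that of the 5 golgins. At 2-fold, 7 transport genes were shorter-lived (7.69%, against 11.3% of all genes) and 16 longer-lived. In the range from 0.5 to 24 h in both treatments, 7 of 65 were longer-lived (10.8%, against 20.3%) and 23 shorter-lived (35.4%, against 27.4%). Below the ceiling in both treatments the counts were 12 of 73 (16.4%, against 22.8%) and 25 (34.2%, against 27.5%). Another alternative, chosen after seeing the data, left out genes over the limit of 6 h of synthesis. Then 4 of 66 were longer-lived (6.06%, against 13.3%) and 26 shorter-lived (39.4%, against 32.1%). It selects on the outcome, since the limit bears only on increases. Means in place of medians turned targeting to 0.30, COPII to 0.14 and golgins to 0.35. They moved TMED to 0.89, TRAPP to 0.62, COG to -0.33 and ER-Golgi SNAREs to 0.69. The same change took all genes from -0.01 to 0.22, so part of these shifts is shared by the whole table. Between 0.5 and 24 h, TMED turned to -0.43 (4 genes) and TRAPP to -0.32, against -0.16 for all genes in that range. Below the ceiling TRAPP turned to -0.32 and signal peptidase moved to -0.37, against -0.13 for all genes. These ranges hold fewer genes and select on the outcome; the cause of the other moves was not tested. With motifs at least 200 nt from a junction, 3 transport genes had 10 or more and their median moved to 0.79, against 0.58 for all such genes. Signal peptidase between 0.5 and 24 h had fewer than 3 genes and was not run. The ceiling and the unknown depth limit the size of the large increases.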
